A study of Mus musculus with 9 samples.

Results

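Complement and coagulation are the plasma protease cascades that the liver supplies. The 41 genes described here are 2 kinds of component of these cascades: the factors themselves, most of which hepatocytes secrete, and the receptors, cofactors and activators that other cells carry or release. They were chosen by symbol, and each was read from the probe set annotated to that symbol alone, the brightest over all arrays where there were several. Of the 41 genes, 38 were measured this way, among 19938 genes with a probe set of their own in the table. C3 and Cfd, with which the annotation used pairs no probe set, were not analysed here, and neither was Klkb1, whose probe set is annotated jointly with Cyp4v3. Of the 38, 37 had 1 probe set and Fga had 2.

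Whole liver RNA of 9 male mice aged 8 to 9 weeks on a C57/BL6 background and standard chow was hybridised to 1 gene array each, in 3 genotypes with 3 arrays each. The labelled double knockout combines the loss of NEMO in hepatocytes with a constitutive p21-/- background and therefore lacks p21, by its label, in every cell type. The NEMO knockout (NEMOΔhepa) lacks NEMO in hepatocytes only, so the other liver cells of both knockout groups still carry the gene, and the wild type mice carry neither deletion. No group lacked p21 alone, and the transgene that drives the deletion is not given in the sources used here. Ikbkg encodes NEMO, without which the IκB kinases cannot switch on NF-κB by the canonical pathway, and Cdkn1a encodes p21, an inhibitor of cyclin-dependent kinases. The labels tell the animals apart only by identifiers, so p-values measure the spread between these samples.

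Complement starts from pattern recognition molecules such as the mannose-binding lectins, whose partner proteases cleave C4 and C2 into the enzyme that activates C3. The cascade then splits C5 and assembles C6, C7, C8 and C9 into a pore, while the small fragments C3a and C5a act on receptors of myeloid cells. Coagulation runs from tissue factor and factor VII, or from the contact factors through factor XI, to factor X and thrombin, which turns fibrinogen into fibrin. Protein C, protein S and thrombomodulin restrain thrombin formation, and plasmin, made from plasminogen by tissue-type and urokinase-type activators, dissolves the clot.

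The arrays correlated across probe sets at 0.9939 to 0.996 within groups and at 0.9864 to 0.9953 between groups, and no 2 were identical. Replicate 1 of the NEMO knockout differed from the rest of its group, scoring 6.27 on the second principal component where replicates 2 and 3 scored -17.14 and -22.88, and its array weight of 0.412 was the lowest of the 9. The Ikbkg probe set read 8.10, 8.26 and 8.45 in the labelled double knockout, 8.23, 8.48 and 8.35 in the NEMO knockout and 8.73, 8.89 and 8.98 in wild type (log2 signal). It fell by 0.60 ± 0.11 in the labelled double knockout against wild type and by 0.52 ± 0.11 in the NEMO knockout against wild type (limma, adjusted p = 0.00835 and 0.0184). The second of these calls was lost without NEMO knockout replicate 1 or 3 or wild type replicate 2 or 3 (adjusted p 0.0524 to 0.0729). The Cdkn1a probe set, annotated jointly with 4930567H12Rik, read 11.14, 10.14 and 11.06 in the labelled double knockout, 9.76, 10.70 and 9.83 in the NEMO knockout and 8.54, 9.64 and 7.83 in wild type. It was called higher in the labelled double knockout against wild type (2.11 ± 0.45, adjusted p = 0.0194) and was not called in the NEMO knockout (1.43 ± 0.45, adjusted p = 0.101). The first of these was lost without labelled double knockout replicate 1 or 3 or wild type replicate 1 or 3 (adjusted p 0.062 to 0.0764), and without wild type replicate 2 the NEMO knockout was called (adjusted p = 0.0283). The signal was thus not reduced in the mice labelled as lacking p21, for which reason that group is called the labelled double knockout throughout. Where either probe set lies relative to the deleted part of its gene was not analysed here. Of the hepatocyte marker list, 8 of 10 genes were measured, and its mean level was 13.39 to 13.51, 13.39 to 13.47 and 13.46 to 13.49 in the labelled double knockout, the NEMO knockout and wild type. None of the 8 was called in either knockout group against wild type. Whether signals this bright still follow the amount of RNA was not tested.

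Differences are log2 values, given with ± 1 standard error and 3 arrays per group, from a limma fit over all 28939 probe sets tested. A gene is called where the Benjamini-Hochberg adjusted p over those probe sets is under 0.05, and the words rose and fell are kept for called genes. In the labelled double knockout, 7 of the 38 genes rose and 7 fell against wild type. The 7 that rose were Mbl2, C3ar1, C5ar1, Pros1, Thbd, Plau and Plat, and the 7 that fell were Mbl1, Masp1, C2, C8g, F11, F7 and F10. These shares of 18.4% each stand beside 5.81% of all probe sets higher and 3.51% lower, or 9.4% and 6.3% of the 14469 probe sets above the median level, where 36 of the 38 genes lie. In the NEMO knockout, 4 genes rose (C3ar1, Pros1, Plau and Plat) and 6 fell (Mbl1, C2, C8b, F11, F7 and F10) against wild type. The share that rose, 10.5%, is near the 9.32% of probe sets above the median level and compares with 5.66% of all. The share that fell, 15.8%, compares with 3.52% of probe sets above the median level and 2.02% of all. The median difference of the 38 genes was -0.08 in the labelled double knockout and -0.05 in the NEMO knockout against wild type, beside -0.03 and -0.04 over all probe sets. After centring of the array medians, the split over all probe sets became 4.52% higher and 5.74% lower in the labelled double knockout and 4.51% higher and 4.04% lower in the NEMO knockout, and 5 of the 38 genes rose and 7 fell in the labelled double knockout and 4 rose and 8 fell in the NEMO knockout. Both comparisons use the same 3 wild type arrays, so their values are given side by side and their likeness is no separate result.

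These counts moved with single arrays, and so did the calls over all probe sets. In the labelled double knockout, 4 genes fell without its replicate 2, 3 without its replicate 3, 3 without wild type replicate 1 and 4 without wild type replicate 3, and 4 rose without its replicate 3 or without wild type replicate 1. Over all probe sets, 2.74%, 1.8%, 2.07% and 2.14% were called lower in these runs, against 3.51% with all arrays. Without labelled double knockout replicate 3 and without wild type replicate 1, 3.73% and 4.34% were called higher, against 5.81%. In the NEMO knockout, 2 genes fell without its replicate 3, without wild type replicate 1 or without wild type replicate 3. Of all probe sets, 1.04%, 1.34% and 1.36% were called lower in these runs, against 2.02%. Without NEMO knockout replicate 1, the array of lowest weight, 4 genes rose and 4 fell in that group. In that run 5.68% of all probe sets were called higher and 2.39% lower, against 5.66% and 2.02%. Of the 14 calls in the labelled double knockout, 7 held whichever array was left out: Mbl1, C2, C3ar1, F7, Pros1, Plau and Plat. Of the 10 in the NEMO knockout, 6 did: C2, C3ar1, F7, Pros1, Plau and Plat.

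By the source of the protein, the calls fell as follows. Of the 30 measured genes that are textbook hepatocyte products, 7 fell and 2 rose in the labelled double knockout, and 6 fell and 1 rose in the NEMO knockout. The 23.3% and 20% that fell compare with 3.51% and 2.02% of all probe sets, or 6.3% and 3.52% of those above the median level. The 6.7% and 3.3% that rose are near or below the 5.81% and 5.66% of all. They are below the 9.4% and 9.32% of probe sets above the median level. Their median differences from wild type were -0.16 and -0.09, and 22 and 24 of the 30 (73.3% and 80%) lay below 0, beside 59.4% and 62% of all probe sets. Of the 8 measured genes made mainly by other cells, 5 rose and none fell in the labelled double knockout, and 3 rose and none fell in the NEMO knockout, with median differences of 0.63 and 0.55. These shares that rose, 62.5% and 37.5% of only 8 genes, stand beside the same 5.81% and 5.66%, or 9.4% and 9.32% above the median level. The difference between these 2 sets of genes was not tested, and the sets were drawn up with earlier results of these data known. In whole liver RNA, fewer cells of a type and less RNA per cell cannot be told apart.

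**Figure D1:**
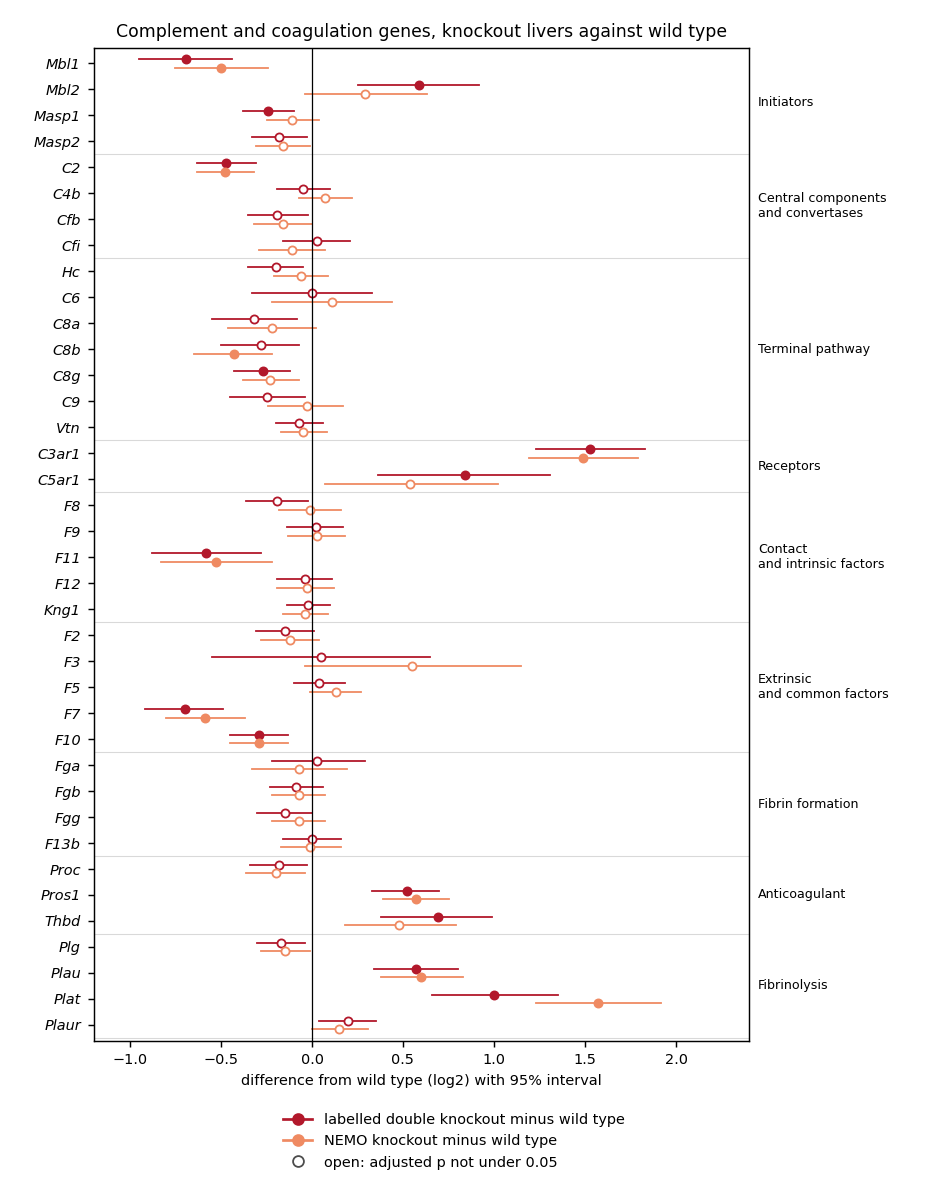
Difference from wild type (log2, x axis) of the 38 measured genes, grouped by role, for the labelled double knockout (dark red) and the NEMO knockout (orange), with 95% intervals from limma (3 arrays per group). Filled points have an adjusted p under 0.05. C3ar1 and Plat lie farthest to the right, F7 and Mbl1 farthest to the left, and the 4 fibrin genes lie near 0.

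Among the molecules that start the lectin pathway, the 2 mannose-binding lectins were called in opposite directions in the labelled double knockout. In the NEMO knockout only Mbl1 was called. Mbl1, which encodes mannose-binding lectin A, read 10.22, 10.15 and 10.13 in the labelled double knockout, 10.10, 10.58 and 10.40 in the NEMO knockout and 10.93, 10.75 and 10.89 in wild type. All 6 knockout arrays lay below all 3 wild type arrays. Mbl1 fell by 0.69 ± 0.11 in the labelled double knockout (adjusted p = 0.00511), which is 1.62-fold lower, and by 0.50 ± 0.11 in the NEMO knockout (adjusted p = 0.0276). The call in the NEMO knockout was lost without its replicate 3, wild type replicate 1 or wild type replicate 3 (adjusted p 0.0741, 0.0948 and 0.0915).

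Mbl2, which encodes mannose-binding lectin C, read 10.30, 10.37 and 10.21 in the labelled double knockout, 9.95, 10.08 and 9.97 in the NEMO knockout and 9.69, 9.37 and 10.06 in wild type. The labelled double knockout arrays lay above all the others, while the NEMO knockout arrays overlapped the wide wild type range. Mbl2 rose by 0.59 ± 0.15 in the labelled double knockout (adjusted p = 0.0373), and the difference was 0.29 ± 0.15 in the NEMO knockout (adjusted p = 0.313). The first call was lost on leaving out any 1 array other than wild type replicate 3 (adjusted p 0.0543 to 0.11). Without wild type replicate 3, the highest of its group, Mbl2 was called in the NEMO knockout as well (0.47, adjusted p = 0.0448).

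Masp1, which encodes a protease that travels with these lectins, read 11.57, 11.59 and 11.45 in the labelled double knockout, 11.65, 11.65 and 11.71 in the NEMO knockout and 11.83, 11.74 and 11.77 in wild type. The 3 groups did not overlap, with the labelled double knockout lowest and wild type highest. The fall in the labelled double knockout was 0.24 ± 0.06 (adjusted p = 0.0465), and the NEMO knockout differed by -0.11 ± 0.06 (adjusted p = 0.405). This small change lost its call on leaving out any 1 of the 9 arrays (adjusted p 0.0513 to 0.168). Masp2, the protease that cleaves C4 and C2, differed by -0.18 ± 0.07 and -0.16 ± 0.07 in the 2 knockout groups against wild type and was not called (adjusted p = 0.14 and 0.202).

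Of the central complement components, C2 was the only one of 4 measured that was called. C2, the protease subunit of the classical and lectin C3 convertase, read 9.35, 9.17 and 9.17 in the labelled double knockout, 9.17, 9.22 and 9.30 in the NEMO knockout and 9.73, 9.69 and 9.69 in wild type. The knockout groups overlapped each other, and both lay below wild type, whose 3 values spread by an SD of 0.02. C2 fell by 0.47 ± 0.07 in the labelled double knockout and by 0.48 ± 0.07 in the NEMO knockout (adjusted p = 0.00315 and 0.00353), 1.39-fold in each. Cfb, its counterpart in the alternative pathway and its neighbour in the genome, differed by -0.19 ± 0.07 and -0.16 ± 0.07 and was not called (adjusted p = 0.174 and 0.249). C4b, the substrate that C2 joins, differed by -0.05 ± 0.07 and 0.07 ± 0.07. Cfi, the protease that inactivates C3b and C4b, differed by 0.03 ± 0.08 and -0.11 ± 0.08 (adjusted p for these 2 genes 0.515 to 0.918).

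In the terminal pathway, 6 of the 7 genes (85.7%) lay below wild type in each knockout group, beside 59.4% and 62% of all probe sets. In each group 1 of only 7 (14.3%) was called, beside 3.51% and 2.02% of all probe sets called lower. Above the median level these shares were 6.3% and 3.52%. C8g, the gamma chain of the C8 complex, read 12.28, 12.20 and 12.14 in the labelled double knockout, 12.25, 12.33 and 12.16 in the NEMO knockout and 12.47, 12.46 and 12.50 in wild type. No knockout array reached the wild type range. C8g fell by 0.27 ± 0.07 in the labelled double knockout (adjusted p = 0.0362), against -0.23 ± 0.07 in the NEMO knockout (adjusted p = 0.0816). The call was lost without labelled double knockout replicate 2 or 3 or any 1 of the 3 wild type replicates (adjusted p 0.0771 to 0.135).

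C8b, the beta chain, read 12.43, 12.42 and 12.37 in the labelled double knockout, 12.03, 12.43 and 12.30 in the NEMO knockout and 12.72, 12.63 and 12.72 in wild type. All 6 knockout arrays were lower than wild type, and NEMO knockout replicate 1 was the lowest. C8b fell by 0.43 ± 0.10 in the NEMO knockout (adjusted p = 0.0241) and differed by -0.28 ± 0.10 in the labelled double knockout (adjusted p = 0.114). The call in the NEMO knockout was lost without its replicate 3 or any 1 wild type replicate (adjusted p 0.0519 to 0.0808), and without NEMO knockout replicate 1 the labelled double knockout was called instead (adjusted p = 0.0236). C8a, the alpha chain and the neighbour of C8b, differed by -0.32 ± 0.11 and -0.22 ± 0.11 and was not called (adjusted p = 0.111 and 0.285).

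The other terminal genes were not called. Hc, which encodes C5, differed by -0.20 ± 0.07 in the labelled double knockout and -0.06 ± 0.07 in the NEMO knockout (adjusted p = 0.112 and 0.694). C9, the subunit that lines the pore, differed by -0.25 ± 0.09 and -0.03 ± 0.09 (adjusted p = 0.148 and 0.876). C6, which joins C5b in the complex, differed by 0.00 ± 0.15 and 0.11 ± 0.15, and Vtn, whose product vitronectin blocks insertion of the pore, by -0.07 ± 0.06 and -0.05 ± 0.06 (adjusted p for these 2 genes 0.579 to 0.999).

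The receptors for the complement fragments C3a and C5a were higher in the knockout livers. C3ar1, the C3a receptor of macrophages and other myeloid cells, read 8.82, 9.09 and 9.13 in the labelled double knockout, 8.85, 8.98 and 9.09 in the NEMO knockout and 7.32, 7.77 and 7.36 in wild type. Each knockout array exceeded each wild type array by more than 1 log2 unit. C3ar1 rose by 1.53 ± 0.13 in the labelled double knockout and by 1.49 ± 0.13 in the NEMO knockout (adjusted p = 0.000252 and 0.000375), 2.89-fold and 2.81-fold. C5ar1, the C5a receptor of neutrophils and macrophages, read 6.93, 6.95 and 7.46 in the labelled double knockout, 6.46, 7.18 and 6.82 in the NEMO knockout and 6.38, 6.48 and 5.97 in wild type. The labelled double knockout lay above wild type throughout, and NEMO knockout replicate 1 lay inside the wild type range. C5ar1 rose by 0.84 ± 0.21 in the labelled double knockout (adjusted p = 0.0376) and differed by 0.54 ± 0.21 in the NEMO knockout (adjusted p = 0.181). The call was lost without any 1 of the labelled double knockout or wild type replicates or without NEMO knockout replicate 3 (adjusted p 0.0575 to 0.13).

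Promoter sequence was at hand for 30 of the 41 genes, as RefSeq windows of 300 bases on assembly GRCm38.p6, from 250 bases before to 50 after the annotated start. Of the 15 genes called at least once, 10 had a window. Both strands were searched for the letters GTTAAT (named for HNF1, found in 7.1% of the 32851 windows of all genes), CAAAGTCCA (HNF4, 0.47%), TTGCNNAA (C/EBP, 10.8%), TTCNNNGAA (STAT, 8.3%), TGANTCA (AP-1, 7.81%) and GAGGAAG (ETS, 13.63%). Of the 30 genes, 8 held the HNF1 letters, none the HNF4 letters, 8 the C/EBP letters, 7 the STAT letters, 6 the AP-1 letters and 2 the ETS letters. A loose NF-κB pattern, GGG and CC with any 5 bases between, occurred in 50.79% of all windows and in 13 of the 30, and is not marked. A match is a description of the sequence and not evidence of binding. The windows printed here and below belong to the 6 genes called in both knockout groups for which there was one, and to the 3 fibrinogen genes, as examples that did not pass the test. C2, Plau and Plat, also called in both, had none. Capitals mark matches to the 6 marked patterns. The window of Mbl1, chr14:41151206-41151505 on the plus strand, holds none of them. The window of C3ar1, chr6:122856108-122856407 on the minus strand, holds the AP-1 letters at position -22. Positions give the leftmost base of a match, counted back from the start, and no 2 marked matches in the printed windows overlap.
Mbl1: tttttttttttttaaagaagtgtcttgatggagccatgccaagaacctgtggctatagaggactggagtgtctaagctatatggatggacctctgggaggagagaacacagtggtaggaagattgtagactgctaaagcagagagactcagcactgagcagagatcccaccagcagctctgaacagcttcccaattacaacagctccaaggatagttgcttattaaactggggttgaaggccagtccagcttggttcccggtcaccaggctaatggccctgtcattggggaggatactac
C3ar1: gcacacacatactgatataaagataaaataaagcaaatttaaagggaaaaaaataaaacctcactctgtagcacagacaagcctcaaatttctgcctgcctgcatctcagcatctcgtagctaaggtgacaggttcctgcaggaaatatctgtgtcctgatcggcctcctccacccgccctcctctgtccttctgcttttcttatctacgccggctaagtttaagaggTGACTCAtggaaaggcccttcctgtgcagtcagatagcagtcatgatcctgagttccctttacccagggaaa

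Most macrophage and stellate cell markers were likewise higher in both knockout groups than in wild type, while few neutrophil markers were called. Of the monocyte and infiltrating macrophage list, 8 of 10 genes were measured, and all 8 rose in each knockout group. Its summed level (log2) ran over 12.35 to 12.57 in the labelled double knockout, 12.32 to 12.43 in the NEMO knockout and 10.98 to 11.23 in wild type. Gpnmb rose by 3.96 ± 0.15 and 3.56 ± 0.15 in the 2 knockout groups, Mmp12 by 3.67 ± 0.28 and 3.51 ± 0.28 and Itgax by 1.48 ± 0.17 and 1.62 ± 0.17 (adjusted p 1.09e-05 to 0.000838). Of the 8 Kupffer cell markers, 5 rose and 1 fell in each knockout group. That list's summed level was 12.49 to 12.62 in the labelled double knockout, 12.38 to 12.56 in the NEMO knockout and 11.84 to 11.99 in wild type. Adgre1 rose by 0.93 ± 0.13 and 0.99 ± 0.13, while Cd163 fell by 1.08 ± 0.20 and 1.85 ± 0.20 (adjusted p 0.000846 to 0.0094). Of the 8 neutrophil markers, 1 rose in the labelled double knockout (Csf3r) and 2 in the NEMO knockout (Csf3r and Retnlg), and 7 of the 8 lay below the median level of the table on all 9 arrays. The summed level of that list was 8.58 to 8.73, 8.76 to 9.08 and 8.48 to 8.55 in the labelled double knockout, the NEMO knockout and wild type. Of the other lists, Epcam among the cholangiocyte markers rose by 0.68 ± 0.17 and 0.74 ± 0.17 (adjusted p = 0.0387 and 0.0304), Cd3g, Nkg7 and Ncr1 among the T and NK cell markers rose in the NEMO knockout by 0.73 to 0.91, and no B cell or adipocyte marker was called. The part of these markers in the differences of C3ar1 and C5ar1 was not tested.

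**Figure D2:**
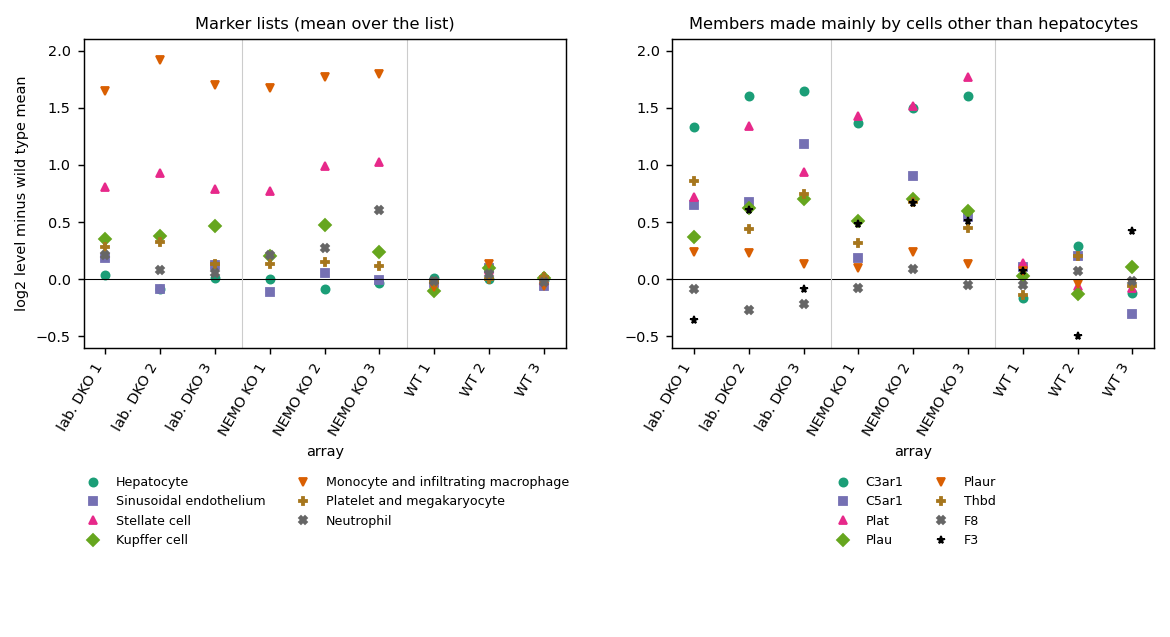
Level of each array minus the wild type mean (log2, y axis) for the labelled double knockout (lab. DKO), NEMO knockout (NEMO KO) and wild type (WT) arrays. The left panel shows means over marker lists and the right panel the 8 genes made mainly by cells other than hepatocytes. Those higher on each of the 6 knockout arrays than on any wild type array included monocyte and macrophage markers, stellate cell markers, C3ar1, Plat and Plau. Hepatocyte markers stayed near 0.

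Of the contact and intrinsic coagulation factors, F11 was the only one of 5 measured that was called. F11, the zymogen that activates factor IX, read 9.78, 10.08 and 9.77 in the labelled double knockout, 9.94, 9.80 and 10.06 in the NEMO knockout and 10.74, 10.34 and 10.30 in wild type. The wild type arrays lay above both knockout groups, and wild type replicate 1 was the highest by a clear gap. F11 fell by 0.58 ± 0.13 in the labelled double knockout and by 0.53 ± 0.13 in the NEMO knockout (adjusted p = 0.0265 and 0.0456). The first call was lost without labelled double knockout replicate 1 or 3 or wild type replicate 1 (adjusted p 0.0642 to 0.0999). The second was lost without any 1 array other than labelled double knockout replicate 2 (adjusted p 0.0562 to 0.144). The window of F11, chr8:45261982-45262281 on the minus strand, holds the C/EBP letters at position -17.
F11: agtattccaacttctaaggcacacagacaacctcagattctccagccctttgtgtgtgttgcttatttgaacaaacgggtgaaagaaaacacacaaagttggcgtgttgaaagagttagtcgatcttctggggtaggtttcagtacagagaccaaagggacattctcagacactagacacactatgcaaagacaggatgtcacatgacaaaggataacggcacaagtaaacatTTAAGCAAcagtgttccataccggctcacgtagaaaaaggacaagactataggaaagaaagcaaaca

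The other 4 intrinsic factors were not called in either comparison with wild type. F9, the vitamin K-dependent protease missing in haemophilia B, differed by 0.02 (95% interval -0.14 to 0.17) in the labelled double knockout and 0.03 (-0.13 to 0.18) in the NEMO knockout. F12, the contact factor that activates factor XI, differed by -0.04 (-0.19 to 0.11) and -0.03 (-0.19 to 0.12). Kng1, which encodes the kininogen cofactor of contact activation, differed by -0.02 (-0.14 to 0.10) and -0.04 (-0.16 to 0.09). The intervals of these 3 genes stay within 0.2 of 0 on the log2 scale. Kng1, at group means of 13.2 to 13.24, is nearly as bright as the hepatocyte markers, where the response of the signal was not tested. F8, the cofactor of factor IX that endothelial cells make, differed by -0.19 ± 0.08 and -0.01 ± 0.08 (adjusted p = 0.182 and 0.966). Of 8 sinusoidal endothelial markers none was called, at a summed level of 12.71 to 12.97, 12.78 to 12.84 and 12.79 to 12.87 in the labelled double knockout, the NEMO knockout and wild type.

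In the extrinsic and common pathway, F7 and F10 fell in both knockout groups. F7, the protease that starts coagulation once it meets tissue factor, read 9.54, 9.91 and 9.77 in the labelled double knockout, 9.83, 9.84 and 9.90 in the NEMO knockout and 10.52, 10.34 and 10.47 in wild type. All 6 knockout arrays lay well below the lowest wild type array. F7 fell by 0.70 ± 0.10 in the labelled double knockout and by 0.59 ± 0.10 in the NEMO knockout (adjusted p = 0.00207 and 0.00591), 1.63-fold and 1.5-fold. F10, whose active form makes thrombin, read 10.91, 10.86 and 10.77 in the labelled double knockout, 10.80, 10.87 and 10.88 in the NEMO knockout and 11.20, 11.04 and 11.18 in wild type. The fall was shallower than that of F7, with no overlap between either knockout group and wild type. F10 fell by 0.29 ± 0.07 in each knockout group (adjusted p = 0.0306 in the labelled double knockout and 0.0341 in the NEMO knockout), 1.22-fold. The first call was lost without labelled double knockout replicate 2 or 3 or wild type replicate 1 or 3 (adjusted p 0.0725 to 0.118). The second was lost without labelled double knockout replicate 2, any 1 NEMO knockout replicate or wild type replicate 1 or 3 (adjusted p 0.0518 to 0.116).

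F7 and F10 are neighbours on chromosome 8 in the RefSeq gene table, and their windows, chr8:13025784-13026083 and chr8:13037058-13037357 on the plus strand, hold none of the 6 marked patterns.
F7: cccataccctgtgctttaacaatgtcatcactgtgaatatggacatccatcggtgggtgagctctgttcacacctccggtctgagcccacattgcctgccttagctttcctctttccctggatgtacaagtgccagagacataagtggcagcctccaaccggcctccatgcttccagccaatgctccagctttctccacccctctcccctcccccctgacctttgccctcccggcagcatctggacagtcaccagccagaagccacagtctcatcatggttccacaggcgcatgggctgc
F10: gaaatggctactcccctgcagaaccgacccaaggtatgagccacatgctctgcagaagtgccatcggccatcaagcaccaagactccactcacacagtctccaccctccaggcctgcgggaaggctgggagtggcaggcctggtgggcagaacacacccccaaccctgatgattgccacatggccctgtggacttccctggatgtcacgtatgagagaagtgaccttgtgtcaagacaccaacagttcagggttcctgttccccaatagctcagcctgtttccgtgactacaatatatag

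The remaining extrinsic and common factors were not called. F2, which encodes prothrombin, differed by -0.15 ± 0.07 in the labelled double knockout and -0.12 ± 0.07 in the NEMO knockout, and F5, the cofactor of factor X, by 0.04 ± 0.06 and 0.13 ± 0.06 (adjusted p for these 2 genes 0.283 to 0.81). F3, which encodes tissue factor, read 6.35, 7.31 and 6.62 in the labelled double knockout, 7.19, 7.37 and 7.22 in the NEMO knockout and 6.78, 6.21 and 7.13 in wild type. Its standard error was the largest of the 38 genes, and the differences of 0.05 ± 0.27 and 0.55 ± 0.27 were not called (adjusted p = 0.957 and 0.285). The interval in the labelled double knockout, -0.55 to 0.65, allows a change of either sign.

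None of the 4 genes of fibrin formation was called in either knockout group. Fgb and Fgg, at group means of 13.15 to 13.31, lay close to the level of the hepatocyte markers. Whether signals this bright still follow the amount of RNA was not tested. Fgb, which encodes the fibrinogen beta chain, read 13.11, 13.22 and 13.11 in the labelled double knockout, 13.16, 13.21 and 13.11 in the NEMO knockout and 13.26, 13.17 and 13.28 in wild type. The 3 groups overlapped. The differences from wild type were -0.09 (-0.23 to 0.06) and -0.07 (-0.22 to 0.07) for Fgb, -0.15 (-0.30 to 0.00) and -0.07 (-0.22 to 0.07) for Fgg, the gamma chain, and 0.03 (-0.22 to 0.29) and -0.07 (-0.33 to 0.19) for Fga, the alpha chain, in the labelled double knockout and the NEMO knockout. A second, dimmer Fga probe set differed by 0.29 ± 0.19 and -0.02 ± 0.19 and was not called either. F13b, the carrier subunit of the fibrin-crosslinking factor XIII, differed by 0.00 (-0.16 to 0.16) and -0.01 (-0.17 to 0.16). The 3 fibrinogen genes lie next to each other on chromosome 3. The window of Fga, chr3:83025903-83026202 on the plus strand, holds the STAT, C/EBP and HNF1 letters at positions -234, -135 and -43. That of Fgb, chr3:83049814-83050113 on the minus strand, holds the AP-1, STAT, ETS, C/EBP and HNF1 letters at positions -173, -162, -125, -80 and -29. The window of Fgg, chr3:83007474-83007773 on the plus strand, holds none of the marked patterns.
Fga: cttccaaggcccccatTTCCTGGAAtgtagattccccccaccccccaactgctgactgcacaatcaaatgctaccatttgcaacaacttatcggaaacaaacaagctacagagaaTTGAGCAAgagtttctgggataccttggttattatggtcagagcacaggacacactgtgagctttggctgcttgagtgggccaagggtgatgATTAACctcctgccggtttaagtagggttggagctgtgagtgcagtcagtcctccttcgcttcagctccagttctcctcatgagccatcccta
Fgb: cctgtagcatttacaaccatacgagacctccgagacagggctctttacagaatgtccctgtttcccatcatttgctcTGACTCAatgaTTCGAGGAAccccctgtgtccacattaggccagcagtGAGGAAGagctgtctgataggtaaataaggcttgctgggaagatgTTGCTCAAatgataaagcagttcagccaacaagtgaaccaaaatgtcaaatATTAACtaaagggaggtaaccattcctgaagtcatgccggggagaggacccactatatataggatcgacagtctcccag
Fgg: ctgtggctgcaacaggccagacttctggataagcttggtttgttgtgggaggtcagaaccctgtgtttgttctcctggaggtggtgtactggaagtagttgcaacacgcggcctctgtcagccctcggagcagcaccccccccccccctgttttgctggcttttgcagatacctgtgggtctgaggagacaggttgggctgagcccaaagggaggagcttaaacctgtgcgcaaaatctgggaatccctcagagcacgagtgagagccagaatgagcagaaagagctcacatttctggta

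**Figure D3:**
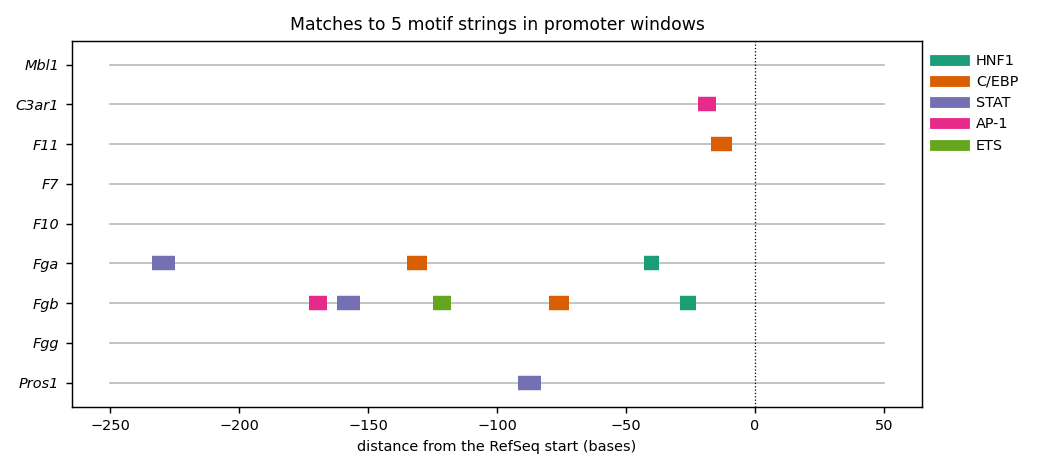
Matches to the 5 marked patterns found (coloured bars, HNF1, C/EBP, STAT, AP-1 and ETS) in the promoter windows of 9 genes, by distance from the RefSeq start (bases, x axis, dotted line at the start). The window of Fgb holds 5 matches and that of Fga 3, and the windows of Mbl1, F7, F10 and Fgg hold none.

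Of the 3 anticoagulant genes, Pros1 and Thbd rose and Proc was not called. Pros1, which encodes protein S, the cofactor of activated protein C, read 9.64, 9.67 and 9.76 in the labelled double knockout, 9.76, 9.88 and 9.60 in the NEMO knockout and 9.13, 9.15 and 9.24 in wild type. All 6 knockout arrays lay above wild type, and the 2 knockout groups overlapped. Pros1 rose by 0.52 ± 0.08 in the labelled double knockout and by 0.57 ± 0.08 in the NEMO knockout (adjusted p = 0.00399 and 0.0027), 1.43-fold and 1.49-fold. Of the hepatocyte products, Pros1 and Mbl2 were the 2 that rose in the labelled double knockout and Pros1 the 1 that rose in the NEMO knockout, although protein S is also made by endothelial cells and megakaryocytes. Of 6 platelet and megakaryocyte markers measured none was called, at a summed level of 9.31 to 9.52, 9.28 to 9.34 and 9.16 to 9.21 in the labelled double knockout, the NEMO knockout and wild type. This level was thus slightly higher on every knockout array than on any wild type array. Its part in the difference of Pros1 was not tested. The window of Pros1, chr16:62854057-62854356 on the plus strand, holds the STAT letters at position -92.
Pros1: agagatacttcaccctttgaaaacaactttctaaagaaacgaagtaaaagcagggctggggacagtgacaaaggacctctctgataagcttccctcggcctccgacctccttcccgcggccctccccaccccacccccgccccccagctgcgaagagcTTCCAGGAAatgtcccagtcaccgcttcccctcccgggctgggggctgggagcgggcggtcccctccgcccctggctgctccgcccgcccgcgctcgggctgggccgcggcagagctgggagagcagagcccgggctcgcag

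Thbd, the endothelial thrombin receptor thrombomodulin, read 7.69, 7.27 and 7.58 in the labelled double knockout, 7.15, 7.51 and 7.28 in the NEMO knockout and 6.69, 7.03 and 6.77 in wild type. Both knockout groups lay above wild type and overlapped each other. Thbd rose by 0.69 ± 0.14 in the labelled double knockout (adjusted p = 0.0129) and differed by 0.48 ± 0.14 in the NEMO knockout (adjusted p = 0.0661). The call was lost without labelled double knockout replicate 3 or wild type replicate 1 or 3 (adjusted p 0.0551, 0.0518 and 0.052), and without labelled double knockout replicate 2 Thbd was called in the NEMO knockout (adjusted p = 0.0447). Proc, which encodes protein C, the protease that thrombomodulin-bound thrombin activates, differed by -0.18 ± 0.07 and -0.20 ± 0.07 (adjusted p = 0.163 and 0.134). Of the vitamin K-dependent proteins among the 38 genes, F7 and F10 fell, Pros1 rose, and F2, F9 and Proc were not called.

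Both plasminogen activators rose in both knockout groups, while plasminogen itself was not called. Plat, the tissue-type activator made by endothelial cells among others, read 6.5, 7.12 and 6.72 in the labelled double knockout, 7.21, 7.30 and 7.55 in the NEMO knockout and 5.92, 5.72 and 5.70 in wild type. The 3 groups did not overlap, with the NEMO knockout highest and wild type lowest. Plat rose by 1.0 ± 0.15 in the labelled double knockout and by 1.57 ± 0.15 in the NEMO knockout (adjusted p = 0.00351 and 0.000501), 2-fold and 2.97-fold. Plau, the urokinase-type activator, read 5.82, 6.07 and 6.15 in the labelled double knockout, 5.96, 6.15 and 6.04 in the NEMO knockout and 5.47, 5.32 and 5.55 in wild type. All 6 knockout arrays were higher than wild type, at levels below the table's median of 6.53. Plau rose by 0.57 ± 0.10 in the labelled double knockout and by 0.60 ± 0.10 in the NEMO knockout (adjusted p = 0.00746 and 0.00644). Plaur, the receptor that holds urokinase on the cell surface, differed by 0.20 ± 0.07 and 0.15 ± 0.07 (adjusted p = 0.12 and 0.242). Plg, the plasminogen gene of hepatocytes, differed by -0.17 ± 0.06 and -0.15 ± 0.06 (adjusted p = 0.127 and 0.196).

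Most stellate cell markers, like the 2 activators, were higher in both knockout groups than in wild type. Of the 8 genes, 6 rose in each knockout group, among them Col1a1 by 1.65 ± 0.10 and 1.69 ± 0.10 and Pdgfra by 1.34 ± 0.19 and 1.55 ± 0.19 (adjusted p 8.46e-05 to 0.00273). The summed level of that list was 13.36 to 13.45 in the labelled double knockout, 13.38 to 13.56 in the NEMO knockout and 12.64 to 12.79 in wild type. Its part in the differences of Plat and Plau was not tested.

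**Figure D4:**
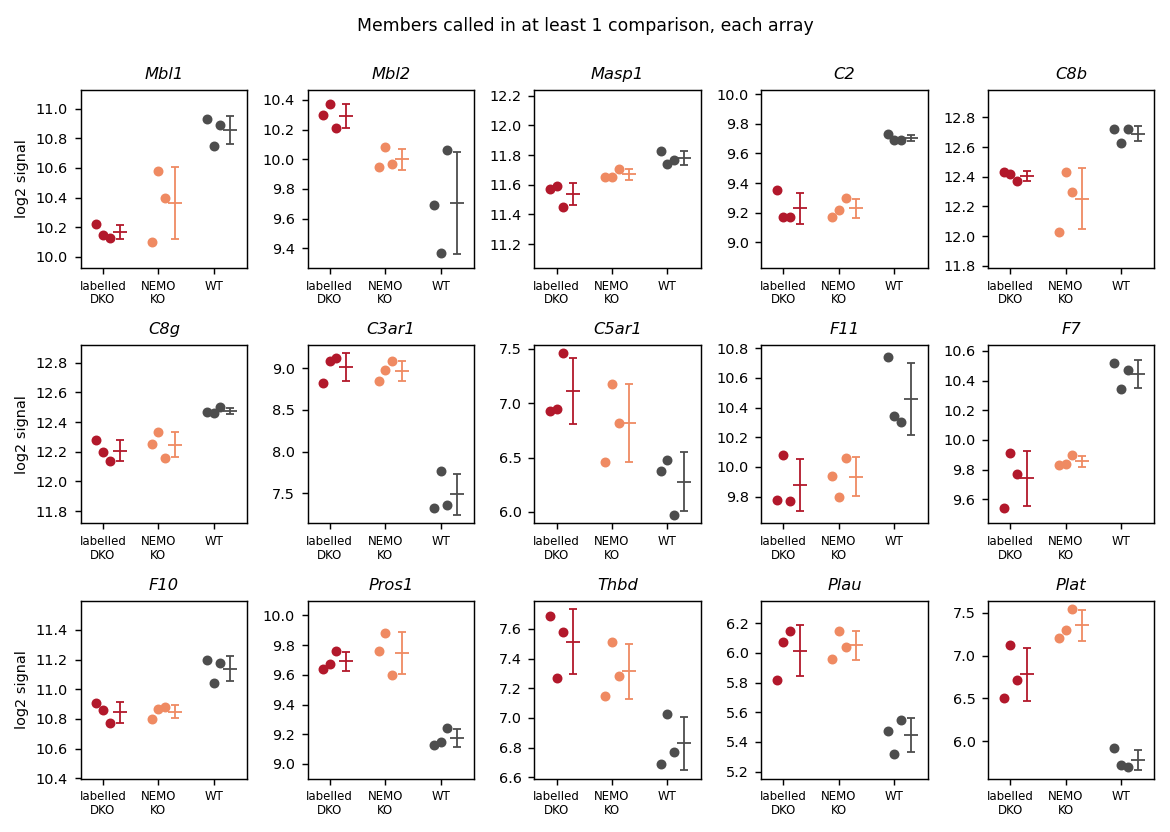
Log2 signal (y axis, a separate range for each panel) of the 15 genes called in at least 1 comparison, 1 point per array, for the labelled double knockout (labelled DKO), NEMO knockout (NEMO KO) and wild type (WT). Horizontal marks and bars show the mean and SD of 3 arrays. C3ar1, Pros1, Thbd, Plau and Plat lie above wild type and Mbl1, Masp1, C2, C8b, C8g, F11, F7 and F10 below it on all 6 knockout arrays.

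Between the labelled double knockout and the NEMO knockout, none of the 38 genes was called by limma. Over all probe sets, 0.0864% were called higher and 0.111% lower in this comparison. At an unadjusted p under 0.05 there were 3 of the 38 (7.9%), beside 7.46% of all probe sets, so this share is near the background. The 3 were Plat, F8 and C9, all lower in the labelled double knockout. The median difference of the 38 genes was -0.02. Plat was lower in the labelled double knockout by 0.57 ± 0.15, with the groups apart (6.5 to 7.12 against 7.21 to 7.55) and a 95% interval of -0.91 to -0.23, but the adjusted p was 0.305. F8 differed by -0.18 (-0.35 to -0.01) and C9 by -0.21 (-0.42 to -0.01), with adjusted p of 0.635 and 0.654. The 95% intervals of 33 of the 38 genes lay within 0.5 of 0 on the log2 scale, a 1.41-fold difference either way, and their median half-width was 0.16. For C2, F10 and C3ar1 the differences were 0.00 (-0.16 to 0.16), 0.00 (-0.16 to 0.16) and 0.04 (-0.26 to 0.34). The intervals of Mbl2 (-0.04 to 0.63), C5ar1 (-0.18 to 0.77), F3 (-1.10 to 0.09), Thbd (-0.10 to 0.51) and Plat were those that passed 0.5. Genes such as Mbl2, C5ar1 and Thbd, called in the labelled double knockout and not in the NEMO knockout against wild type, were therefore not shown to differ between the 2 knockout groups.

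**Figure D5:**
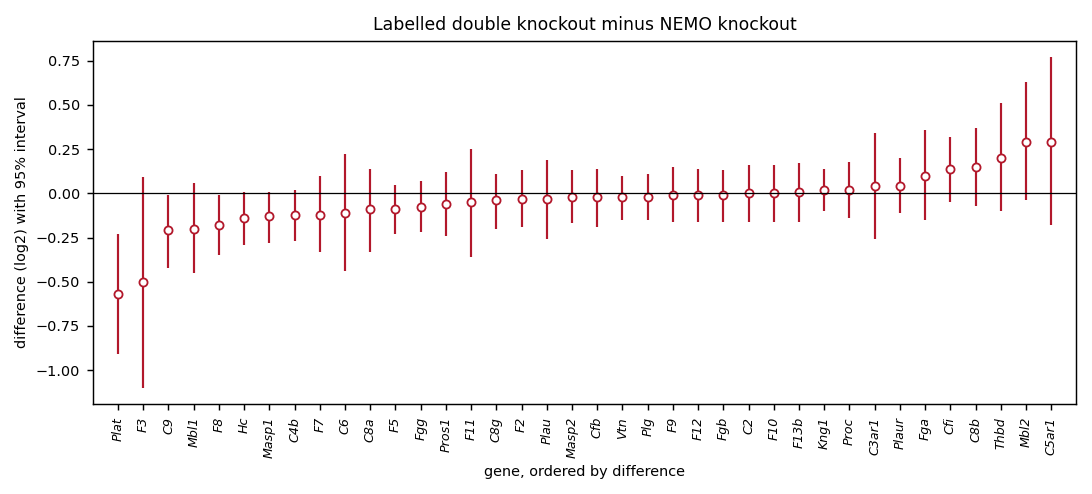
Difference between the labelled double knockout and the NEMO knockout (log2, y axis) for the 38 genes in order of size, with 95% intervals from limma (3 arrays per group). No gene had an adjusted p under 0.05. Plat is at the far left at -0.57, followed by F3, whose interval crosses 0.

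A second list held 61 other genes of the 2 cascades, of which 56 were measured. In the labelled double knockout 13 rose and 6 fell against wild type, and in the NEMO knockout 11 rose and 3 fell. The shares that rose, 23.2% and 19.6%, stand beside 5.81% and 5.66% of all probe sets, or 9.4% and 9.32% of those above the median level. The shares that fell, 10.7% and 5.4%, stand beside 3.51% and 2.02% of all, or 6.3% and 3.52% of those above the median level. Of its 27 complement genes, 9 rose and 3 fell in the labelled double knockout and 7 rose and 2 fell in the NEMO knockout (33.3% and 11.1%, and 25.9% and 7.4%). C1qb and C1qc, subunits of the macrophage-made C1q that starts the classical pathway, rose by 0.85 ± 0.07 and 1.04 ± 0.10 in the labelled double knockout and by 0.95 ± 0.07 and 0.89 ± 0.10 in the NEMO knockout (adjusted p 0.000169 to 0.000868). Itgax and Itgb2, the chains of the leukocyte complement receptor 4, rose by 1.48 ± 0.17 and 0.88 ± 0.10 in the labelled double knockout and by 1.62 ± 0.17 and 1.06 ± 0.10 in the NEMO knockout. C1qa, Vsig4 and Itgax of this list also stand in the macrophage marker lists.

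Colec11 was the only gene of the second list called between the 2 knockout groups. It encodes collectin-11, a soluble lectin of the same pathway as Mbl1, and read 8.82, 8.63 and 8.59 in the labelled double knockout, 9.71, 9.61 and 9.95 in the NEMO knockout and 9.45, 9.65 and 9.76 in wild type. The labelled double knockout lay below all 6 other arrays, and the NEMO knockout overlapped wild type. Colec11 was lower in the labelled double knockout by 1.08 ± 0.11 against the NEMO knockout (adjusted p = 0.0108) and by 0.94 ± 0.11 against wild type (adjusted p = 0.00106), and the NEMO knockout differed from wild type by 0.14 ± 0.11 (adjusted p = 0.547). The first of these calls was lost without labelled double knockout replicate 3 (-1.03, adjusted p = 0.067).

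Of the 29 other coagulation and fibrinolysis genes, 4 rose and 3 fell in the labelled double knockout and 4 rose and 1 fell in the NEMO knockout. These shares, 13.8% and 10.3%, and 13.8% and 3.4%, lie nearer to those over probe sets above the median level. Anxa2 encodes a cell surface receptor for plasminogen and Plat and rose by 2.03 ± 0.16 and 2.4 ± 0.16 (adjusted p = 0.000176 and 0.000132). S100a10, its partner subunit, differed by 0.47 ± 0.13 (adjusted p = 0.0526) and rose by 0.57 ± 0.13 in the NEMO knockout (adjusted p = 0.0272). Thbs1, a platelet and matrix glycoprotein, rose by 1.85 ± 0.28 and 1.77 ± 0.28 (adjusted p = 0.00325 and 0.00468), and Hgfac, a hepatocyte protease related to factor XII, fell by 0.60 ± 0.09 and 0.45 ± 0.09 (adjusted p = 0.00274 and 0.0133). Tfpi, the inhibitor of the factor VII and tissue factor complex, rose by 0.46 ± 0.12 in the labelled double knockout (adjusted p = 0.0409), and F2r, a thrombin receptor, by 0.55 ± 0.12 in the NEMO knockout (adjusted p = 0.0205). Ggcx and Vkorc1, the enzymes that modify and recharge the vitamin K-dependent factors, were singled out after their values were seen. Ggcx fell by 0.40 ± 0.09 and Vkorc1 by 0.31 ± 0.06 in the labelled double knockout (adjusted p = 0.0254 and 0.014), with -0.32 ± 0.09 and -0.23 ± 0.06 in the NEMO knockout (adjusted p = 0.0701 and 0.056).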

How the data were processed

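Per the submitters' processing notes, the authors produced the deposited values, which are log2 signals for each probe set and array, with RMA. That the base is 2 was inferred from that method and from how far the values reach. The sources used here give no software version, genome build or filter. Because RMA equalises the distributions of the arrays, a change common to all RNA would be lost, and its median polish can repeat a value: Masp2, F8, F9, F13b and Plaur share 1 value over 2 arrays and Proc over 3. Arrays have no sequencing depth, so precision rests on 3 samples per group.

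Of 35556 probe sets, 6617 were left out as controls, an inference from their identifiers, and 28939 were tested. The platform annotation gave 21789 of these 1 symbol, 1621 several and 5529 none. Of those with 1 symbol, 21698 were found in the RefSeq gene table of GRCm38.p6, used for names and neighbours only. Groups came from the sample labels. All 9 arrays entered 1 limma 3.58.1 fit (R 4.3.3, lmFit and eBayes) with 1 mean per group, with 95% intervals and Benjamini-Hochberg adjustment over all tested probe sets, and the script was tested on simulated data. Summaries used Python 3.11.15 with pandas 2.3.3. The 18 alternatives tried were 9 runs that leave out 1 array each and 9 other settings. The genes, roles, lists and motifs were chosen with earlier results of these data known. By rule, values are printed by array for each of the 38 genes called at least once and for the targeted genes, the uncalled ones are given as differences (F3, Fgb and Colec11 were added by array after their values were seen), and of the other pathway and marker lists called genes with the largest changes are named, at most 4 per list and comparison.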

Additional observations from a re-analysis of the deposited data

How the results depend on the processing

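No alternative called any of the 38 genes between the labelled double knockout and the NEMO knockout, and sign changes were traced for the 15 genes called against wild type, the 2 targeted genes and Colec11. In that comparison these were C2 (-0.03) and F10 (-0.03) with array weights and F10 with arrays centred on their medians (-0.00141) or quantile normalisation (-0.01). Among the same genes, leaving out 1 array at a time gave differences on both sides of 0 for C2 (-0.06 to 0.04), C3ar1 (-0.02 to 0.14), F11 (-0.15 to 0.01), F10 (-0.03 to 0.04), Pros1 (-0.13 to 0.01), Plau (-0.1 to 0.06) and Ikbkg (-0.17 to 0.01).

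With the array medians centred, the median difference of the 38 genes became -0.142 in the labelled double knockout and -0.114 in the NEMO knockout. With dim probe sets left out, only 36 of the 38 genes remained, and their median was -0.117 in the labelled double knockout. That value is over a smaller set of genes, so it is no change in the genes kept. Centring also moved the calls over all probe sets to 1309 higher and 1661 lower in the labelled double knockout and to 1304 higher and 1169 lower in the NEMO knockout, against 1680 and 1016, and 1638 and 584, as reported. The causes of these shifts on centring were not tested. The replicate block left 3 genes lower in the NEMO knockout and a fit on only the 2 groups compared left 2, against 6. Over all probe sets, the block called 2.25% lower there and the fit on 2 groups 1.5%, against 2.02%. Same-numbered samples deviated with correlations of 0.09, -0.12 and -0.04 between the labelled double knockout and wild type, 0.18, 0.01 and 0.02 between the NEMO knockout and wild type, and 0.39, 0.08 and 0.25 between the knockout groups. Not every pair passed 0.1 and the labels name no shared batch, so the numbers were not taken as pairs, although a factor shared by same-numbered knockout samples is not excluded by these values. The block gave 5 genes higher and 5 lower in the labelled double knockout, beside 5.95% and 3.64% of all probe sets.

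Leaving out 1 array at a time, 4 to 6 genes were higher and 3 to 7 lower in the labelled double knockout (median difference -0.138 to -0.06). Over all probe sets, 3.73% to 5.86% were called higher and 1.8% to 3.54% lower there. In the NEMO knockout 4 to 5 genes were higher and 2 to 5 lower (median -0.083 to -0.036), beside 3.74% to 5.68% and 1.04% to 2.39% of all probe sets. Between the knockout groups the median was -0.045 to -0.005 with 0 calls among the genes. At least 1 setting other than a left-out array ended the calls of Mbl2, Masp1, C8g, C5ar1, F11 and F10 in the labelled double knockout and of Mbl1, C8b, F11 and F10 in the NEMO knockout (adjusted p 0.0514 to 0.0974), and called C8b in the labelled double knockout and C8g and Thbd in the NEMO knockout (0.0264 to 0.0459). Of the 24 calls against wild type, 13 held under every alternative run, Plau under 17 and the others under 18, since Plau fails the filter on dim probe sets.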
